A study of Homo sapiens with 12 samples.

Results

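The selenoprotein genes described here are 10 of the 62703 genes counted in HCT116 cells, a human colorectal cancer line of epithelial origin. They are GPX1, GPX4, TXNRD1, TXNRD2, SELENOF, SELENOH, SELENOK, SELENOS, SELENOT and SELENOW, each with an mRNA read through an in-frame UGA codon. They were chosen by name from the 25 known human selenoprotein genes, with earlier results of these data known. All were found in the count table through their GENCODE identifiers. All 10 were among the 15920 genes with enough counts to be tested. Cells received 2 nM of control siRNA (labelled wild-type) or of an siRNA against HNRNPU (labelled HNRNPU silencing) for 48 h. For the gradients, cycloheximide, which holds ribosomes in place on the mRNA, was added shortly before lysis and kept in the buffers. Total RNA and heavy polysomal (HP) RNA, the sucrose gradient fractions that hold mRNAs carrying many ribosomes, were sequenced from 3 experiments per condition, which gave 12 libraries in 4 conditions. The question posed was which mRNAs change in level or in ribosome loading when hnRNP U is reduced. The paper found this RNA-binding protein in nuclear, cytosolic and microsomal fractions. All cells are of 1 line. Since a polysome gradient is a bulk measurement, fewer cells translating an mRNA and fewer ribosomes per mRNA in each cell cannot be told apart.

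Selenocysteine, the selenium analogue of cysteine, is inserted where the ribosome meets a UGA codon that would elsewhere end translation. A hairpin in the 3′ untranslated region, the SECIS element, recruits SECISBP2 and the elongation factor EEFSEC with the selenocysteine tRNA, and decoding competes with termination at the same codon. Most of the encoded proteins are redox enzymes of the cytosol, mitochondria or endoplasmic reticulum (ER), and some selenoprotein mRNAs are known to fall by nonsense-mediated decay when selenium is short.

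The UGA codon lies in 2 kinds of place, and the windows around it are shown because the HP results below are set out by that place. Each window has 27 nt of the coding strand (GRCh38, canonical transcripts of GENCODE release 44), written 5′ to 3′ with the selenocysteine codon in capitals as TGA. In the first 6 genes the codon stands well inside the reading frame.
GPX1: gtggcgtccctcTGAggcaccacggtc
GPX4: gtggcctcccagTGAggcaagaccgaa
SELENOF: gaagtttgtggaTGAaaattgggaagg
SELENOH: cattgcactagcTGAcgcgtctatggg
SELENOT: atttgtgtttccTGAggttataggcgg
SELENOW: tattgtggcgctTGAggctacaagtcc
In the other 4 genes the codon is within 2 codons of the end, so that the true stop codon falls inside the window.
TXNRD1: caggctggctgcTGAggttaagcccca
TXNRD2: gtgacaggctgcTGAgggtaagcgcca
SELENOK: atggctggtggaTGAggaaggtaaatg
SELENOS: tcatctggcggaTGAggctaagaatct

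GPX1 (chr3:49357174-49358605, minus strand), the main cytosolic glutathione peroxidase, reads selenocysteine at codon 49 of 203, in exon 1 of 2 at chr3:49358132-49358134. GPX4 (chr19:1103982-1106791, plus strand), which reduces lipid hydroperoxides in membranes and restrains ferroptosis, reads it at codon 73 of 197, in exon 3 of 7 at chr19:1105403-1105405. These are the peroxidases of the set. TXNRD1 (chr12:104215779-104350307, plus strand), the cytosolic thioredoxin reductase, has it at codon 648 of 649, in the last of 17 exons at chr12:104348413-104348415. TXNRD2 (chr22:19875517-19941820, minus strand), the mitochondrial thioredoxin reductase, has it at codon 523 of 524, in exon 17 of 18 at chr22:19877111-19877113. In both reductases the residue is the last but 1 and forms part of the redox centre.

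The ER-associated members differ among themselves in the same way. SELENOF (chr1:86862445-86914424, minus strand), a thioredoxin-like partner of the glycoprotein folding sensor UGGT, reads selenocysteine at codon 96 of 165, in exon 3 of 5 at chr1:86880690-86880692. SELENOT (chr3:150602875-150630436, plus strand), an ER membrane oxidoreductase, reads it at codon 49 of 195, in exon 2 of 6 at chr3:150622392-150622394. SELENOK (chr3:53884417-53891885, minus strand), an ER membrane protein that binds the acyltransferase ZDHHC6 and the degradation machinery, has it at codon 92 of 94, in exon 4 of 5 at chr3:53885831-53885833. SELENOS (chr15:101270817-101277500, minus strand), a membrane anchor for VCP in ER-associated degradation, has it at codon 188 of 189, in the last of 6 exons at chr15:101272777-101272779. Of the small thioredoxin-fold proteins, SELENOW (chr19:47778677-47784686, plus strand) reads it at codon 13 of 87, in exon 2 of 6 at chr19:47780732-47780734, and the nucleolar SELENOH (chr11:57741491-57743554, plus strand) at codon 44 of 122, in exon 2 of 4 at chr11:57741816-57741818.

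HNRNPU mRNA stood at 1028 ± 67.9 CPM (read counts scaled to library size; SD, n = 3) in control total RNA and at 159 ± 9.47 CPM with hnRNP U siRNA, and at 1080 ± 61.5 and 78.3 ± 3.71 CPM in HP RNA, so the libraries matched their labels. Library totals ran from 30305012 to 39761103 counts, and libraries of a group correlated at 0.997 to 0.998 over genes (log2 CPM). Of the epithelial markers EPCAM, KRT8, KRT18, KRT19 and CDH1 had group means from 62.4 to 3061 CPM, while the means of LGALS4 did not pass 0.0517 CPM. In single libraries the markers of leukocytes and endothelium reached 0.548 and 0.434 CPM at most. Of the 4 fibroblast markers DCN was at 0 in every library and only COL1A1 exceeded 0.361 CPM in any library, and the summed level of the 4 went from 16.4 to 17.8 CPM in control total libraries to 9.71 to 10.7 CPM with hnRNP U siRNA (HP, from 14.1 to 16.4 CPM to 6.86 to 8.68 CPM). The part of this shift in the results below was not tested.

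Levels of different genes were compared per length in control total RNA, as TPM (counts divided by the length of the canonical transcript and scaled to the same sum in each library). GPX4 was highest at 693 ± 34.6 TPM (SD, n = 3), followed by TXNRD1 at 322 ± 25.03, SELENOW at 244 ± 3.28 and SELENOF at 230 ± 9.74 TPM. A middle group held SELENOS at 73.7 ± 0.459, SELENOT at 65.6 ± 2.64, SELENOK at 42.004 ± 1.05 and GPX1 at 38.7 ± 4.95 TPM. TXNRD2 at 21.7 ± 1.08 TPM and SELENOH at 6.48 ± 0.0801 TPM were lowest. SELENOK and GPX1 were the only neighbours in this order whose mean ± SD ranges overlapped. With the length of all annotated exons instead, SELENOW was at 55.1 TPM, SELENOS at 36.8 TPM and TXNRD2 at 7.92 TPM, so their places depend on the length used. The level of GPX1 is uncertain, because 63.6% of its canonical transcript also lies in exons of ENSG00000290318, a gene on the same strand whose row held 0 to 1 counts, and reads from shared exons may not have been counted for either gene. The same holds for SELENOH, with 33.5% shared with ENSG00000254732 (0 to 5 counts).

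**Figure D1:**
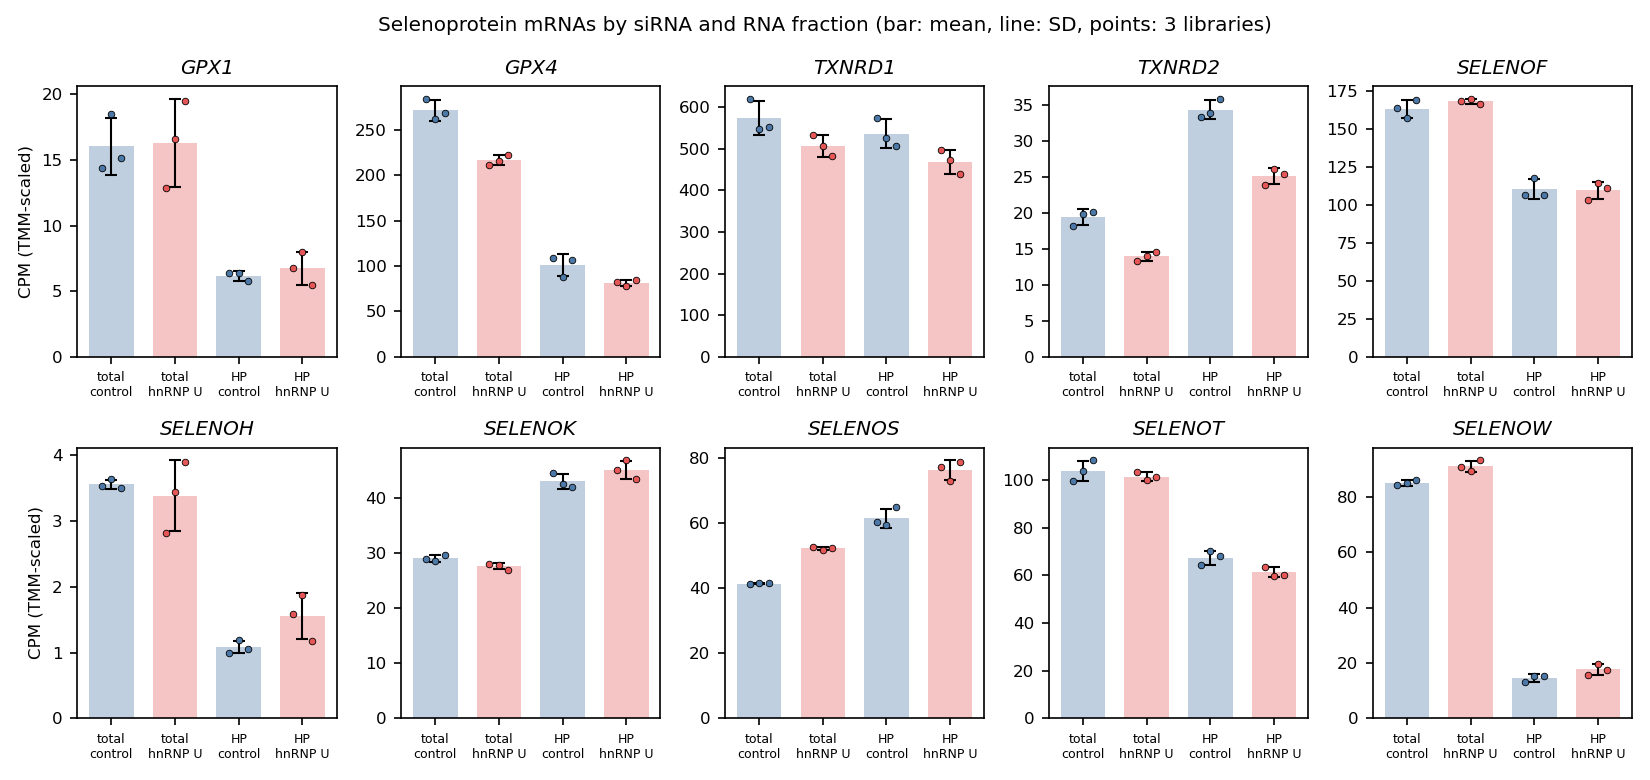
TMM-scaled CPM (linear axis from 0) for each of the 10 selenoprotein mRNAs in total and HP RNA with control siRNA (blue) or hnRNP U siRNA (red); bars are means, lines SDs and points the 3 libraries. SELENOW dropped from 85.1 CPM in control total RNA to 14.6 CPM in HP RNA, whereas TXNRD2, SELENOK and SELENOS were higher in HP than in total RNA.

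The comparison of HP with total RNA asks which mRNAs are over- or under-represented among those carrying many ribosomes. With control siRNA, TXNRD2, SELENOK and SELENOS were higher in HP RNA, SELENOW, SELENOH, GPX4, GPX1, SELENOT and SELENOF were lower, and TXNRD1 passed in neither direction (edgeR's quasi-likelihood test, adjusted p under 0.05). These are 3 of 10 higher and 6 of 10 lower, where 33.8% and 33.2% of all genes tested were called. The median log2 HP/total was -0.60 over the 10 members and -0.03 over all genes, and 4 members differed by more than 2-fold. Over the 9 other selenoprotein genes tested the median was -0.10, and 0 of them were called past 2-fold, so the low median belongs to these 10 genes. TMM scaling sets each library relative to most of its mRNAs, so the values rank mRNAs and do not give an absolute share of ribosomes.

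SELENOW had the lowest HP representation of the set. Its libraries held 84.1, 84.9 and 86.2 CPM in control total RNA and 13.04, 15.4 and 15.4 CPM in control HP RNA, so the fractions were far apart and did not overlap. The log2 HP/total was -2.54 ± 0.07 (SE), or 17.2% of the total RNA level, with an adjusted p of 7.52e-17. With hnRNP U siRNA it was -2.37 ± 0.07.

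Both peroxidases had less than the total RNA share in HP RNA. GPX4 measured 284, 262 and 269 CPM in control total RNA against 109, 87.5 and 107 CPM in HP RNA, a log2 difference of -1.43 ± 0.06 (adjusted p = 8.70e-14). GPX1 measured 14.4, 18.5 and 15.1 CPM against 6.41, 6.41 and 5.76 CPM, a log2 difference of -1.37 ± 0.14 (adjusted p = 2.46e-08). The fractions did not overlap for either gene, and with hnRNP U siRNA the differences were -1.41 ± 0.06 and -1.28 ± 0.14.

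SELENOH, the least abundant member, went from 3.53, 3.63 and 3.51 CPM in total RNA to 1.00, 1.18 and 1.06 CPM in the HP fraction of control cells (log2 -1.71 ± 0.18, adjusted p = 2.53e-08). These HP values rest on 30, 39 and 41 counts. SELENOT and SELENOF, the ER members with an internal codon, were lowered less. SELENOT fell from 99.6, 104 and 108 CPM to 64.3, 70.1 and 68.0 CPM (log2 -0.62 ± 0.05), and SELENOF from 164, 157 and 169 CPM to 107, 118 and 106 CPM (log2 -0.57 ± 0.05), with no overlap between the fractions for any of these 3 genes.

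On the other side stood TXNRD2, with 18.2, 19.9 and 20.2 CPM in control total RNA and 33.3, 33.9 and 35.9 CPM in HP RNA (log2 0.82 ± 0.06, adjusted p = 2.19e-10). SELENOS had 41.2, 41.4 and 41.5 CPM against 60.2, 59.3 and 64.8 CPM (log2 0.57 ± 0.05), and SELENOK had 28.8, 28.5 and 29.6 CPM against 44.5, 42.4 and 41.9 CPM (log2 0.57 ± 0.05). Every HP library of these 3 genes was above every total RNA library. TXNRD1, the cytosolic paralogue of TXNRD2, had 619, 547 and 552 CPM in total RNA and 574, 527 and 506 CPM in HP RNA. The fractions overlapped, at log2 -0.10 ± 0.06 (95% interval -0.22 to 0.03, adjusted p = 0.162). Since total and HP libraries of the same control experiment varied together, the fit with the experiment as a block also bears on this gene, and there the same -0.10 had an adjusted p of 0.0148. It was also called without replicate 1 of control HP RNA, at -0.15.

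With hnRNP U siRNA the same members were called in the same directions, 3 higher and 6 lower, where 35.1% and 31.8% of all genes were. TXNRD2 was at log2 0.85 ± 0.07, SELENOK at 0.71 ± 0.05, SELENOS at 0.55 ± 0.05, SELENOT at -0.73 ± 0.05, SELENOF at -0.62 ± 0.05 and SELENOH at -1.13 ± 0.17. TXNRD1 was again not called, at -0.11 ± 0.06 (adjusted p = 0.106, or 0.00545 with the experiment as a block). It was called at -0.18 without replicate 1 of control total RNA, where the median of all genes also moved, from 0.004 to -0.07. The order of levels in HP RNA therefore differed from that in total RNA: in control HP RNA TXNRD1 (317 ± 24.7 TPM) and GPX4 (271 ± 32.7 TPM) led with overlapping ranges, and SELENOW (44.02 ± 3.65 TPM) stood beside SELENOT (44.8 ± 1.62 TPM) and TXNRD2 (40.4 ± 1.144 TPM), whose ranges both overlapped with its own.

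Set out by the place of the UGA codon, the HP results of the members fell into groups whose values did not overlap. This grouping was made after the values were seen and carries no test. Of the 4 members with selenocysteine within 10 codons of the end, 3 were higher in HP RNA and 0 lower, with a median log2 HP/total of 0.57 with control siRNA. Of the 6 with the codon further inside, 0 were higher and 6 lower, with a median of -1.40. With hnRNP U siRNA the counts were the same and the medians were 0.63 and -1.21. Of all genes tested, 33.8% were higher and 33.2% lower with control siRNA, and 35.1% and 31.8% with hnRNP U siRNA. With the experiment as a block the late group had 3 higher and 1 lower, TXNRD1, with either siRNA, and the inner group was unchanged at 6 lower.

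Of the 15 other human selenoprotein genes 9 could be tested. Of those with a late codon, TXNRD3, another thioredoxin reductase (codon 642 of 643), and SELENOO, a mitochondrial AMPylating enzyme (667 of 669), were higher in control HP RNA at log2 0.42 and 0.37, and SELENOI, a phospholipid synthase (387 of 397), was not called at -0.10. Of those with an inner codon, SELENOM (48 of 145), SELENOP, the secreted selenium carrier (59 of 381), SELENON (127 of 590) and MSRB1, a methionine sulfoxide reductase (95 of 116), were lower at -0.60, -0.56, -0.50 and -0.37. SELENOP has 10 in-frame UGA codons and SELENON 2, and both were placed by the first. SEPHS2, which makes selenophosphate (60 of 448), and DIO3, a thyroid hormone deiodinase (170 of 304), were not called at -0.04 and 0.05, and DIO3 lay under 1 CPM. As given above, 33.8% of all genes tested were higher and 33.2% lower with control siRNA. Over all 19 selenoprotein genes tested, 5 of 7 with a late codon were higher with control siRNA. Of those with an inner codon 10 of 12 were lower, and none in either group was called the other way. With hnRNP U siRNA these counts were 5 of 7 and 9 of 12. With the experiment as a block these counts were the same, but 2 late-codon genes, TXNRD1 and SELENOI, were called lower with control siRNA (both at -0.10) and TXNRD1 with hnRNP U siRNA (-0.11). All of these counts rest on the limit of 10 codons, part of a grouping made after the values were seen, so they are no independent check. SELENOI has 10 codons after its UGA and MSRB1 has 21. A limit of 21 or more would put MSRB1, called lower, in the late group.

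**Figure D2:**
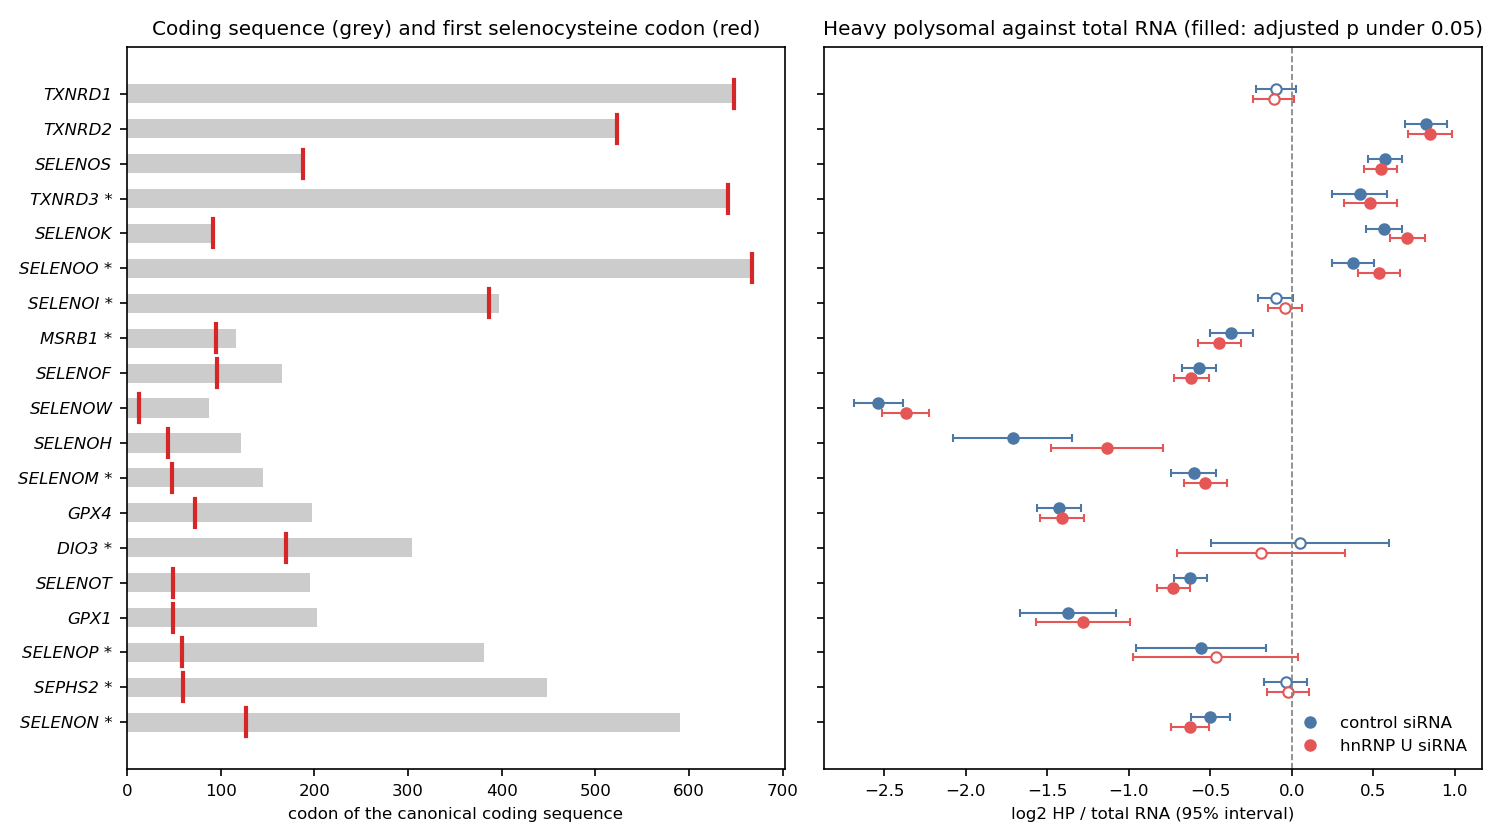
Left, coding sequences of the 19 selenoprotein genes tested (grey, in codons of the canonical transcript) with the first selenocysteine codon in red, ordered by the number of codons after it; an asterisk marks genes outside the set of 10. Right, log2 HP/total RNA with its 95% interval for control siRNA (blue) and hnRNP U siRNA (red), filled where the adjusted p was under 0.05. Filled points lie to the right of 0 only for genes whose codon is at the end, and SELENOW lies furthest to the left at -2.54 with control siRNA.

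The distance from the UGA to the last exon junction was a related but not identical feature. A stop codon more than about 55 nt before that junction is the usual mark for nonsense-mediated decay. The codon lay 470 nt before it in SELENOT, 342 nt in GPX4, 267 nt in SELENOH, 243 nt in SELENOW, 105 nt in GPX1, 78 nt in SELENOF and 71 nt in TXNRD2, 5 nt before it in SELENOK, and in the last exon in TXNRD1 and SELENOS. Of the 7 members over 55 nt, 6 were lower in HP RNA and TXNRD2 was higher. Among all genes tested 33.2% were lower and 33.8% higher with control siRNA. Over all 19 genes, 9 of 10 beyond this distance were lower with control siRNA, against 1 of 9 (MSRB1) nearer to the junction or in the last exon, where 4 were higher and 4 were not called (without the block).

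Coding length also moved with HP representation, but weakly and not in a single direction. The Spearman correlation of codons with log2 HP/total (control siRNA) was -0.10 over 12758 genes and 0.39 over the 10 members. Among 12758 protein-coding genes tested, the median log2 HP/total with control siRNA was -0.41 for the 795 genes under 150 codons, 0.20 for the 2477 genes from 150 to under 300 codons, 0.20 for the 4909 genes from 300 to under 600 codons and -0.03 for the 4577 longer ones. All 6 members with an inner codon have under 300 codons, and so do SELENOK and SELENOS. Within their own length class SELENOW lay at the percentile 0.503, SELENOH at 4.03, GPX4 at 2.18, GPX1 at 2.62, SELENOT at 15.02 and SELENOF at 16.6. SELENOK lay at the percentile 94.0 of the shortest class, and TXNRD2 at 95.9 and SELENOS at 75.2 of theirs, while TXNRD1 (-0.10) was a little under the median of its class. The part of length in these values was not tested beyond this, and in the shortest class 59.1% of genes were called lower.

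**Figure D3:**
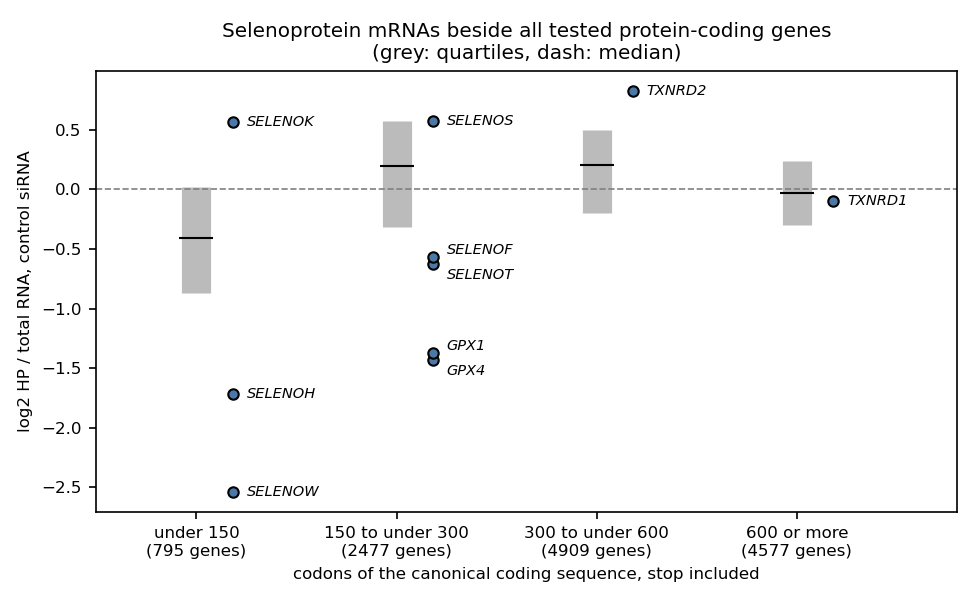
Log2 HP/total RNA with control siRNA for the 10 members (points) beside all tested protein-coding genes in 4 classes of coding length (grey bar, lower to upper quartile; black dash, median). SELENOW and SELENOH lie below the lower quartile of the shortest class (-0.87) and SELENOK above its upper quartile (0.02), while TXNRD1 lies near the median of the longest class.

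The comparison of hnRNP U siRNA with control siRNA asks how the level of each mRNA changed. In total RNA GPX4, TXNRD1 and TXNRD2 fell and SELENOS rose, and the other 6 members did not pass the test. In HP RNA the same 4 members moved in the same directions, SELENOT fell and SELENOW rose as well. Thus 1 of 10 rose and 3 of 10 fell in total RNA, where 28.0% of all genes rose and 29.3% fell, and 2 and 4 of 10 in HP RNA, where 25.5% rose and 26.3% fell. No member changed by 2-fold or more, and the medians were -0.06 in total RNA and -0.003 in HP RNA, against 0.0005 and 0.007 over all genes.

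Both thioredoxin reductases fell in each fraction. TXNRD2 went from 18.2, 19.9 and 20.2 CPM in control total RNA to 13.4, 13.99 and 14.6 CPM (log2 -0.48 ± 0.07, a decrease of 28.4%, adjusted p = 1.05e-05). In HP RNA it went from 33.3, 33.9 and 35.9 CPM to 23.9, 26.2 and 25.4 CPM (log2 -0.49 ± 0.07, adjusted p = 1.12e-05). These were the largest changes among the called members, and the siRNA groups did not overlap. TXNRD1 went from 619, 547 and 552 CPM to 532, 505 and 481 CPM in total RNA (log2 -0.18 ± 0.05, adjusted p = 0.00616) and from 574, 527 and 506 to 496, 472 and 438 CPM in HP RNA (log2 -0.23 ± 0.06, adjusted p = 0.00342). Its siRNA groups came close to each other, with the highest treated total library at 532 CPM and the lowest control library at 547 CPM.

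GPX4 fell while GPX1 did not pass the test. GPX4 went from 284, 262 and 269 CPM to 212, 216 and 223 CPM in total RNA (log2 -0.33 ± 0.04, a decrease of 20.5%, adjusted p = 5.02e-06). In HP RNA it went from 109, 87.5 and 107 CPM to 82.7, 77.7 and 84.6 CPM (log2 -0.34 ± 0.07, adjusted p = 0.000740), again with no overlap. GPX1 measured 12.8, 16.6 and 19.5 CPM with hnRNP U siRNA in total RNA and 6.77, 7.98 and 5.48 CPM in HP RNA, which overlapped with the control libraries given above. Its log2 fold changes were 0.03 (95% interval -0.22 to 0.27) and 0.09 (-0.18 to 0.36), so a fall as large as that of GPX4 in the same fraction lies outside each interval.

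SELENOS, the VCP anchor of the ER membrane, was the one member that rose in both fractions. It went from 41.2, 41.4 and 41.5 CPM to 52.7, 51.8 and 52.2 CPM in total RNA (log2 0.33 ± 0.04, an increase of 25.8%, adjusted p = 4.83e-06) and from 60.2, 59.3 and 64.8 CPM to 77.2, 72.9 and 78.6 CPM in HP RNA (log2 0.28 ± 0.06, adjusted p = 0.000743). The lowest treated library was above the highest control library in each fraction. SELENOT fell in HP RNA from 64.3, 70.1 and 68.0 CPM to 63.6, 59.7 and 60.3 CPM (log2 -0.17 ± 0.06, adjusted p = 0.0179) and was at -0.04 ± 0.04 in total RNA. Without replicate 2 of control HP RNA, or replicate 2 or 3 of hnRNP U HP RNA, the SELENOT change was -0.15, -0.15 or -0.17 and was no longer called. SELENOF (log2 0.04 ± 0.04 in total RNA and -0.04 ± 0.06 in HP RNA) and SELENOK (-0.08 ± 0.05 and 0.04 ± 0.06) did not pass in either fraction.

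SELENOW was near the threshold in both fractions. Its total RNA libraries had 84.1, 84.9 and 86.2 CPM with control siRNA and 90.8, 89.3 and 93.2 CPM with hnRNP U siRNA, which did not overlap, at log2 0.09 ± 0.04 and an adjusted p of 0.0546. In HP RNA the values were 13.04, 15.4 and 15.4 CPM against 15.6, 19.8 and 17.6 CPM, at log2 0.23 ± 0.10 and an adjusted p of 0.0497. The HP call was lost with DESeq2 (adjusted p = 0.0613), with a minimum count of 50 (0.0504), and without replicate 1 or 3 of control HP RNA (log2 0.16 and 0.26) or replicate 2 or 3 of hnRNP U HP RNA (0.15 and 0.23). SELENOH had 1.00, 1.18 and 1.06 CPM in control HP RNA and 1.59, 1.88 and 1.18 CPM with hnRNP U siRNA, where the lowest treated library lay just under the highest control library. Its log2 fold change was 0.48 ± 0.22 in HP RNA (adjusted p = 0.0734) and -0.07 ± 0.13 in total RNA. The SELENOH change in HP RNA was called with all 12 libraries in 1 fit (0.51, adjusted p = 0.0368) and without replicate 3 of hnRNP U HP RNA (0.64).

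**Figure D4:**
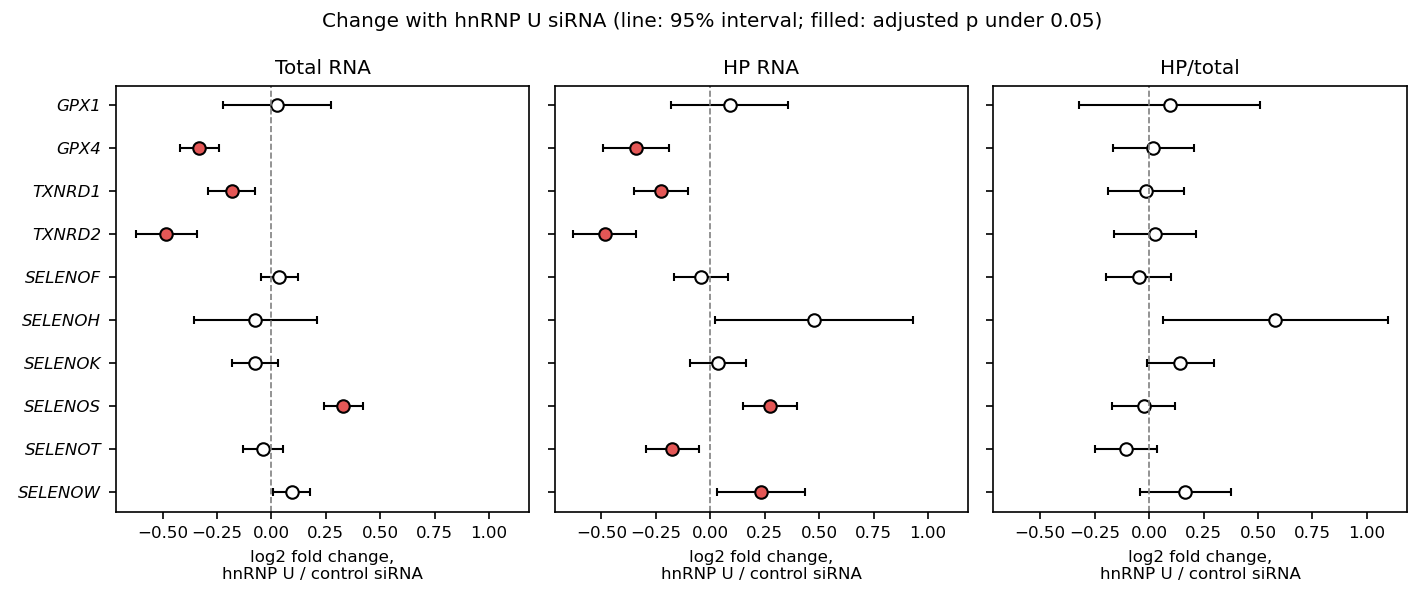
Log2 fold change of hnRNP U siRNA over control siRNA with its 95% interval for the 10 members, in total RNA, in HP RNA and for HP/total; filled points had an adjusted p under 0.05. TXNRD2 lies furthest to the left in total and HP RNA (-0.48 and -0.49), SELENOS lies to the right of 0 in both, and no point is filled for HP/total, where SELENOH has the widest interval.

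The HP/total comparison asks whether HP representation itself differed between the siRNAs, as the interaction of siRNA and fraction. Of the 10 members 0 rose and 0 fell, where 0.0817% of all genes rose and 0.0817% fell (13 genes each way of 15920). At an unadjusted p under 0.05 the count of members was 1, SELENOH, and DESeq2 called 0. The median was 0.02 over the members and 0.04 over all genes. SELENOH was at 0.58 (95% interval 0.06 to 1.10, adjusted p = 0.631), and this interval reaches past 2-fold. The HP/total values and intervals given here are from the fit without a block. With a block for the cells of each siRNA and experiment, which pairs their total and HP RNA, 140 of 15920 genes were called. Of the members 0 were called there.

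For the abundant members the intervals were narrower. HP/total changed by 0.02 (95% interval -0.17 to 0.21) for GPX4, by -0.02 (-0.19 to 0.16) for TXNRD1, by 0.03 (-0.16 to 0.21) for TXNRD2 and by -0.02 (-0.17 to 0.12) for SELENOS, the 4 members called in both fractions. In the separate fits their changes in total and HP RNA were -0.33 and -0.34, -0.18 and -0.23, -0.48 and -0.49, and 0.33 and 0.28, in that order. The intervals leave room for a difference, and that of TXNRD1 reaches the size of its change in total RNA. SELENOW was at 0.17 (-0.04 to 0.37), SELENOK at 0.14 (-0.01 to 0.30), SELENOT at -0.11 (-0.25 to 0.04), SELENOF at -0.05 (-0.20 to 0.10) and GPX1 at 0.10 (-0.32 to 0.51). SELENOT was called in HP RNA and not in total RNA, but this difference between the fractions did not pass the test (adjusted p = 0.813).

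A sequence able to form an RNA G-quadruplex (RG4), the structure that hnRNP U was studied for, was sought as 4 runs of GGG or more with loops of 1 to 7 nt. It was found in the canonical transcript of 0 of the 10 members and of 26.7% of the 12758 protein-coding genes tested. In at least 1 annotated transcript it was found for GPX1, GPX4, TXNRD2, SELENOH and SELENOW, and for 44.6% of those genes. Members with and without this motif in some annotated transcript were found among those called and those not called in total RNA. Of those called, GPX4 has it in 4 of 14 annotated transcripts and TXNRD2 in 2 of 21, none of them canonical. TXNRD1 and SELENOS have it in 0. Which transcripts the counts come from was not tested. The paper took RG4s from a prediction score and from published experiments, neither used here, so these counts are of this motif only. The part of RG4s in the siRNA changes was not tested.

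Among the other 15 selenoprotein genes, 9 were tested with hnRNP U siRNA, and 2 rose and 2 fell in each fraction. Over all genes 28.0% rose and 29.3% fell in total RNA, and 25.5% and 26.3% in HP RNA. SELENOM rose by log2 0.21 ± 0.05 in total RNA and 0.25 ± 0.08 in HP RNA, and SEPHS2 by 0.22 ± 0.04 and 0.20 ± 0.07. Both HP calls depended on single libraries, being lost for SELENOM without replicate 2 of control or 3 of hnRNP U HP RNA (0.18 and 0.23), and for SEPHS2 without replicate 2 or 3 of control or 1 of hnRNP U HP RNA (0.16, 0.13 and 0.16). SELENON, an ER protein of calcium handling, had a log2 fold change of -0.29 ± 0.04 and -0.44 ± 0.06. SELENOP had the largest change of any selenoprotein mRNA, -1.20 ± 0.19 and -1.14 ± 0.20, at group means between 1.22 and 3.82 CPM. TXNRD3 (0.11 and 0.15), SELENOI (-0.10 and -0.07), SELENOO (-0.06 and 0.07), MSRB1 (0.10 and -0.003) and DIO3 (0.31 and 0.04) did not pass. GPX2, GPX3, GPX6, DIO1, DIO2 and SELENOV were not tested, with group means of 0.117 CPM or less.

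The genes that make selenocysteine and insert it changed in both directions, with 7 of 14 up and 3 down in total RNA and 7 up and 4 down in HP RNA. The shares of all genes were 28.0% up and 29.3% down in total RNA, and 25.5% and 26.3% in HP RNA. TRNAU1AP, a partner of the selenocysteine tRNA, fell by 1.03 on the log2 scale in total RNA and by 1.37 in HP RNA. LRP8, a receptor for SELENOP, fell by 0.56 and 0.64, and SEPSECS, the last enzyme of selenocysteine tRNA synthesis, by 0.31 and 0.44. PSTK, the kinase of the step before it, rose by 0.54 and 0.88, SCLY, which releases selenium from selenocysteine, by 0.66 and 0.66, and SEPHS1 by 0.29 and 0.32. The decoding factors SECISBP2 (log2 -0.03 ± 0.04 in total RNA) and EEFSEC (-0.01 ± 0.07) did not pass the test in either fraction.

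Of the genes that work with the members in redox control, the thioredoxin and glutathione list had 6 of 25 up and 10 down in total RNA, and 4 up and 10 down in HP RNA. All genes tested had 28.0% up and 29.3% down in total RNA, and 25.5% and 26.3% in HP RNA. GSR, the glutathione reductase, rose by 0.91 on the log2 scale in total RNA and 0.93 in HP RNA, and GSS, the last enzyme of glutathione synthesis, by 0.51 and 0.53. GLRX5 rose by 0.50 in total RNA. MSRB3 fell by 0.89 and 1.10 and MSRB2 by 0.50 and 0.55, both methionine sulfoxide reductases that use cysteine. The HP call of MSRB2 was lost without replicate 1 or 3 of control HP RNA (-0.28 and -0.56) or replicate 2 of hnRNP U HP RNA (-0.42). The NRF2 targets, to which TXNRD1 also belongs, had 5 of 16 up and 3 down in total RNA and 3 up and 3 down in HP RNA. GCLM fell by 0.35 and 0.29 and NQO1 by 0.26 and 0.20, and HMOX1 rose by 0.31 and 0.41, while FTH1 rose by 0.34 in total RNA. PIR fell by 0.20 and 0.26.

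The lipid peroxidation and ferroptosis list, the field of GPX4, had 4 of 13 up and 1 down in total RNA and 4 up and 2 down in HP RNA. For all genes the shares were 28.0% up and 29.3% down in total RNA, and 25.5% and 26.3% in HP RNA. SLC3A2, a chain of the cystine importer, rose by 0.94 and 1.04, and POR, the cytochrome P450 reductase, by 0.49 and 0.57. CHAC1, which degrades glutathione, was called at 0.80 and 0.97, but 1 control library of each fraction stood apart. Its total RNA libraries had 35.5, 12.9 and 9.93 CPM with control siRNA and 35.8, 35.3 and 29.6 CPM with hnRNP U siRNA, and its HP libraries 47.5, 19.5 and 13.5 CPM against 57.7, 56.4 and 46.1 CPM, so the groups overlapped in both. Without control replicate 1 the values were 1.56 and 1.67, without control replicate 3 they were 0.46 (adjusted p = 0.123) and 0.63, and in total RNA the call was also lost without control replicate 2 (0.59, adjusted p = 0.0791) or hnRNP U replicate 2 (0.76, adjusted p = 0.0538). GCH1, which starts tetrahydrobiopterin synthesis, was called at 0.15 and 0.17, and lost the total RNA call without replicate 2 or 3 of either siRNA (0.13 to 0.14) and the HP call without any 1 of 5 HP libraries (0.10 to 0.18). ACSL4, which loads polyunsaturated fatty acids for membrane lipids, was called at -0.18 in HP RNA, and at -0.16 without replicate 1 of hnRNP U HP RNA it was no longer called. Of the ER partners of SELENOF, SELENOK and SELENOS, 4 of 11 rose and 1 fell in total RNA, and 5 rose and 0 fell in HP RNA (at an unadjusted p under 0.05 the count in either direction was also 5). UBXN6, a cofactor of VCP, rose by 1.27 and 1.44 and DERL1 by 0.44 and 0.38, beside SELENOS at 0.33 and 0.28. SYVN1, the ligase of ER-associated degradation, rose by 0.28 and 0.25 (0.16 in HP RNA without control replicate 1), and UGGT2 by 0.41 in HP RNA. In HP/total 0 genes of these lists were called.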

How the data were processed

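HCT116 libraries were poly(A)-selected and directional, read from 1 end over 75 bp. Trim Galore was run by the authors at a quality of 30 and a length of at least 18, STAR aligned the reads to hg38, and the authors deposited raw counts per gene over GENCODE 43, with no normalization. The strand setting and the STAR version are not given in the sources used here, so reads of overlapping genes cannot be assigned with certainty. The submitters' processing notes name CASAVA 1.8.

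Names, coordinates and sequences came from GENCODE 44 on the same build (62639 of 62703 identifiers found). Genes were kept by filterByExpr (minimum count 10, 15920 genes), scaled by TMM and tested with the quasi-likelihood test of edgeR 4.0.16 in R 4.3.3, with Benjamini-Hochberg adjustment over all genes tested and a threshold of 0.05. Total and HP RNA were fitted on 6 libraries each, and HP/total and HP against total RNA on all 12. Errors are SDs over 3 libraries or SEs of the fit. Totals of 30305012 to 39761103 counts without molecular identifiers set the counting precision. All 10 members and HNRNPU were named, with the other tested selenoproteins and, of each other list, up to 4 called genes with the largest changes at a mean log2 CPM of at least 1. The exceptions, chosen once values were known, were SEPSECS, SEPHS1, SECISBP2, EEFSEC and the genes of the closing section. Some genes that the rule would name are not reported here. Members and lists were chosen with earlier results of these data known. The scripts were tested on simulated data. Alternatives were DESeq2 1.42.0, other scaling factors and filters, other sets of libraries in the fit, a block, and leaving out each library.

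Deviations of same-numbered control total and HP libraries correlated at 0.22, 0.24 and 0.18, all over 0.1. The titles of the libraries also share a prefix over all 4 conditions of each number, so the labels themselves pair the libraries by experiment. Values with the block are given where they changed a call. The main fits have no block, so their intervals leave out this pairing. In the siRNA comparison of total RNA the correlations were 0.01, 0.09 and 0.11, and in that of HP RNA 0.10, 0.19 and 0.20, of which the first was 0.0956.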

Additional observations from a re-analysis of the deposited data

Results flagged for a closer look

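HNRNPU itself, the target of the siRNA, was the one named gene whose change differed between HP and total RNA by the interaction test, with a log2 HP/total of -1.09 ± 0.08 (edgeR's quasi-likelihood test, adjusted p = 2.34e-07), and none of the 10 selenoprotein genes was.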

How the results depend on the processing

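The counts of members called stayed within 1.5 times the reported ones under every alternative fitted, at 4 to 5 in total RNA, 4 to 7 in HP RNA, 0 in HP/total and 9 to 10 in HP against total RNA. With the replicate block 5 members were called in total RNA (SELENOW added, log2 0.09, adjusted p = 0.0352), 6 in HP RNA, 0 in HP/total and 10 in each comparison of HP with total RNA (TXNRD1 added), and it changed no other call of a member. SELENOW in total RNA was also called with DESeq2's size factors (adjusted p = 0.0477), upper-quartile factors (0.0311) and a minimum count of 50 (0.0322). Upper-quartile factors moved the median of all genes to -0.11 in HP against total RNA with either siRNA, and TXNRD1 was then lower at -0.18 and -0.22. A minimum count of 50 also called TXNRD1 lower with either siRNA (-0.20 and -0.21), and with hnRNP U siRNA so did DESeq2's size factors (-0.14), no filter (-0.16) and the 6 libraries of that siRNA alone (-0.14). HP/total values near 0 changed sign. GPX4 went to -0.0151 with DESeq2, -0.0150 with its size factors, -0.00587 with upper-quartile factors and -0.0432 without a filter, and TXNRD2 to -0.00864 with DESeq2, -0.00858 with its size factors and -0.0359 without a filter. The median HP/total of all genes moved in the same settings, from 0.04 to 0.001 with DESeq2 or its size factors. It was 0.01 with upper-quartile factors and -0.02 without a filter. The part of this shift in the sign changes was not tested. Leaving out 1 library at a time, values ranged from -0.122 to 0.173 for GPX1 and -0.184 to 0.0434 for SELENOH in total RNA, and from -0.0466 to 0.218 for GPX1 and -0.0768 to 0.00164 for SELENOF in HP RNA. For HP/total they ranged from -0.116 to 0.242 for GPX1, -0.0879 to 0.0858 for GPX4, -0.150 to 0.0478 for TXNRD1, -0.0729 to 0.0636 for TXNRD2, -0.125 to 0.00335 for SELENOF and -0.0954 to 0.0175 for SELENOS. Depth limited SELENOH, with 30 to 61 counts in HP libraries.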

Other observations

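Redox enzymes that do not use selenocysteine were also compared between HP and total RNA with control siRNA, with 18 of 25 genes of the thioredoxin and glutathione list higher and 3 lower (median log2 HP/total 0.53), where 33.8% and 33.2% of all genes tested were. PRDX1 stood at 1.13 ± 0.04, PRDX2 at 1.12 ± 0.04, PRDX6 at 0.92 ± 0.04 and GSR at 0.56 ± 0.04, where GPX4 stood at -1.43 ± 0.06. The PRDX genes and GSR were picked from the 18 higher ones. Elsewhere in the list, control total and HP means were 17.4 and 14.2 CPM for MSRB3 and 62.9 and 68.4 CPM for GPX8. Of the NRF2 targets 12 of 16 were higher and 4 lower. NQO1 at 0.91 ± 0.06 and TALDO1 at 0.90 ± 0.04 were among the higher ones. Among the lower ones were the iron-storage mRNAs FTL (-2.74 ± 0.09) and FTH1 (-2.35 ± 0.07), whose translation is known to be held back by iron regulatory proteins. FTL and FTH1 lay on either side of SELENOW (-2.54 ± 0.07). EEFSEC was higher in HP RNA at 0.69 ± 0.06, and RPL30, a ribosomal protein that also binds SECIS elements, was lower at -0.98 ± 0.05.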
